A study of Rattus norvegicus with 12 samples.

Results

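The comparison described here sets the uterus of Brown Norway rats (BN-Oil, 3 libraries) against that of Holtzman Sprague Dawley rats (HSD-Oil, 3 libraries) after an injection of vehicle alone. These are the 6 of 12 libraries in the series whose labels give oil as the treatment. All animals of both groups were females of 10 weeks that had been ovariectomised and left for 2 weeks, so each uterus had been without ovarian hormones. They received sesame oil under the skin, and the uterus was collected 9 h later. Brown Norway is an inbred strain, and the rat reference genome was built from it. Holtzman Sprague Dawley is an outbred stock, so its animals differ from each other in genotype. Each library was made from polyA RNA. The other 6 libraries come from the same strains given progesterone at 40 µg per g of body weight (BN-P4 and HSD-P4, 3 libraries each). Each library carries an animal number of its own in its title, and p-values measure the spread between these libraries. The progesterone libraries enter the fit, and their strain difference is given where it bears on the baseline.

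The uterus holds a luminal and glandular epithelium, a stroma, a smooth muscle wall (the myometrium), vessels, nerves and resident immune cells. Estrogen drives growth and secretion of the epithelium and progesterone opposes part of that growth, both acting through nuclear receptors. After ovariectomy the organ regresses to a resting state. Brown Norway rats are widely used in work on allergic, IgE-driven responses, in which mast cells take part.

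Total gene reads per library lay between 11763894 and 15535279 in BN-Oil and between 17435481 and 18880375 in HSD-Oil. Levels are given in CPM, which are gene reads scaled to library size by the trimmed mean of M values (TMM), and 3 reads, used as the floor of detection, correspond to 0.159 to 0.255 CPM. Reads placed uniquely made up 92.1 ± 0.165% in BN-Oil and 91.7 ± 0.521% in HSD-Oil, intron reads 23.7 ± 1.05% and 23.6 ± 2.06%, and mitochondrial reads 4.72 ± 0.390% and 5.39 ± 0.393% (mean ± SD, n = 3 each). Genes picked by globin names took 0.00808 to 0.0122% of reads in BN-Oil and 0.0292 to 0.0416% in HSD-Oil, without overlap. The names begin with Hba, Hbb, Hbe, Hbz or Hbq. Genes without a symbol are left out, and any other gene so named is counted. An exact two-sided permutation test of 3 libraries against 3 cannot give a p below 0.1, so it cannot decide on these measures. On the first principal component of the oil libraries, with 51.2% of the variance, BN-Oil lay between 29.0 and 32.2 and HSD-Oil between -32.9 and -29.4. Index barcodes do not overlap between the groups, and no preparation date is given. A preparation batch aligned with strain cannot be told apart from strain. In tissue of many cell types, fewer cells of a type and less RNA per cell cannot be told apart either.

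Between the strains 893 of 15697 tested genes were called under oil (5.69%) by edgeR's quasi-likelihood test at a Benjamini-Hochberg adjusted p below 0.05. In BN-Oil 368 of them rose (2.34% of tested genes) and 525 fell (3.34%) relative to HSD-Oil. At least 2-fold changes were fitted for 426 of these genes, 176 higher and 250 lower in BN-Oil. The median absolute log2 difference of the called genes was 0.96. Over all 15697 tested genes 7795 log2 differences were positive and 7902 negative, the background for counts of signs in the gene lists. The lists and their members were chosen with earlier results of these data known, so counts in them are descriptions and no test. Libraries of the strains did not overlap for 889 of the called genes, and for 25.7% of all tested genes. At an unadjusted p below 0.05 there were 2812 genes. Genes with more than 50% of reads in introns made up 32.5% of the calls and 22.6% of tested genes. The count of calls depended on the libraries used: with 1 oil library left out it was 516, 450 and 436 without BN-Oil replicates 1, 2 and 3, and 588, 774 and 535 without HSD-Oil replicates 1, 2 and 3. Counting exon reads gave 538 calls.

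**Figure D1:**
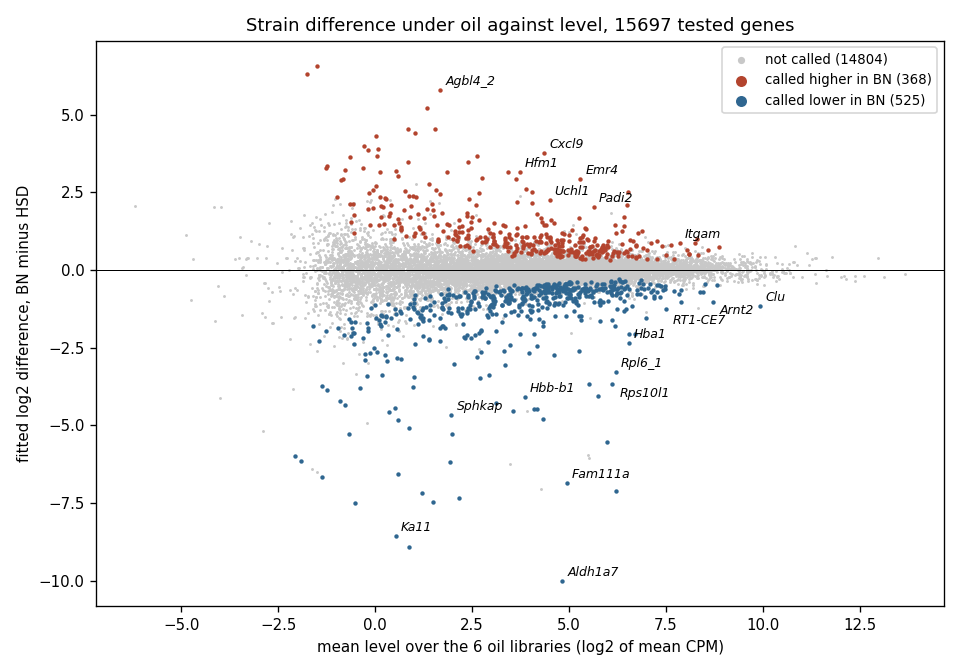
Fitted log2 difference under oil, BN minus HSD (vertical axis), against the log2 of the mean CPM over the 6 oil libraries (horizontal axis) for 15697 tested genes. Red points are the 368 genes called higher in BN and blue points the 525 called lower; called genes at high levels such as Clu, Arnt2 and Itgam differ by about 1.

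Among uniquely placed genes with a symbol, the largest increase in BN-Oil was in Agbl4_2, a numbered copy of Agbl4, which encodes a carboxypeptidase that trims glutamate chains from tubulin (chromosome 5, 135206776 to 135280577 in Rnor_5.0). It had 6.39, 6.12 and 6.39 CPM in BN-Oil, against 0.103, 0.215 and 0 CPM in HSD-Oil. The BN-Oil libraries agree closely and HSD-Oil is at or near the floor, with a log2 difference of 5.78 ± 0.48 (SE; adjusted p = 1.79e-05). Hfm1, a helicase of meiotic recombination, was at 18.9, 25.6 and 27.4 CPM in BN-Oil, against 2.17, 3.595 and 2.35 CPM in HSD-Oil (log2 difference 3.14 ± 0.24, adjusted p = 7.74e-06), with 78.6% of its reads in introns. Groups without overlap were also seen for Scg3, a secretogranin of secretory granules, at 10.4, 13.6 and 10.6 CPM in BN-Oil, against 0.568, 0.536 and 1.62 CPM in HSD-Oil (log2 difference 3.67 ± 0.48, adjusted p = 0.00065, 88.4% of reads in introns). With exon reads Scg3 gave 1.29 and was not called (adjusted p = 0.126). Vom2r37, a vomeronasal receptor gene, had 17.5, 20.4 and 20.6 CPM in BN-Oil, against 2.17, 1.66 and 2.68 CPM in HSD-Oil, and 99.7% of its reads lay in introns. The others of the 12 largest increases, given as log2 differences, were Mcpt8l2, a protease of the mast cell protease 8 group (4.40), Cib3 (4.32), the resistin-like Retnlg (3.99), the synaptonemal complex gene Syce1 (3.87), the chemokine Cxcl9 (3.77), the mast cell protease Mcpt2 (3.49), Doxl2 (3.29) and Crct1 (3.17). All but Cxcl9, Hfm1, Vom2r37 and Scg3 averaged under 10 CPM in BN-Oil. When 1 oil library was left out, calls were lost by Retnlg without 4 of the 6 (adjusted p up to 0.112) and Syce1 without 4 of the 6 (adjusted p up to 0.0809).

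Decreases in BN-Oil were ranked under the same conditions. Ka11, a type I keratin gene, had 0, 0 and 0 CPM in BN-Oil, against 2.53, 3.38 and 2.79 CPM in HSD-Oil. With 0 reads in BN-Oil and 162 in HSD-Oil it was at least 40.6-fold lower in BN-Oil, taking 3 reads over the group as the floor (adjusted p = 5.70e-05). Its neighbour on chromosome 10, Krt16, a keratin of stressed epithelium, had 1 read in BN-Oil and 167 in HSD-Oil, a ratio of HSD-Oil to BN-Oil of 126 (95% exact interval 22.2 to 4992, counting error only). Isx, an intestinal homeobox gene, had 0 reads in BN-Oil and 78 in HSD-Oil and was at least 19.6-fold lower in BN-Oil, with 97.4% of its reads in introns. Car4, a membrane-bound carbonic anhydrase, had 0.192, 0.352 and 0 CPM in BN-Oil, against 6.14, 11.6 and 5.31 CPM in HSD-Oil, without overlap (log2 difference -5.29 ± 0.66, adjusted p = 0.000476). For Sphkap, an anchor of protein kinase A, the libraries held 0.256, 0.141 and 0.491 CPM in BN-Oil, against 4.59, 10.1 and 7.88 CPM in HSD-Oil (log2 difference -4.67 ± 0.46, adjusted p = 7.60e-05). Cyp2d1, a cytochrome P450 (-4.46), Spdef, a transcription factor of secretory epithelium (-3.80), the somatostatin receptor Sstr3 (-3.41), Efcab6 (-3.38), Ly6g6e (-3.38) and the kappa light chain constant gene Igkc (-3.07) followed on the log2 scale. Fam111a, which is described with the genes that vary among HSD animals, was the remaining gene of these 12. Calls lost with 1 oil library left out were those of Spdef without 2 of the 6 (adjusted p up to 0.0719), Igkc without 6 of the 6 (adjusted p up to 0.151) and Fam111a without 3 of the 6 (adjusted p up to 0.112).

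Neither main receptor of the ovarian steroids passed the test between the strains. Esr1, the estrogen receptor alpha, had 120.4, 124 and 133 CPM in BN-Oil, against 135, 124 and 130.0 CPM in HSD-Oil, and these values overlap. Its log2 difference was -0.05 ± 0.10 (adjusted p = 0.89). Pgr, the progesterone receptor, had 303, 316 and 342 CPM in BN-Oil, against 394, 364 and 365 CPM in HSD-Oil, lower in each BN-Oil library than in each HSD-Oil library, with a log2 difference of -0.23 ± 0.10 that did not pass (adjusted p = 0.246). Of 17 measured genes for steroid receptors and cofactors 1 rose and 1 fell, a called share of 11.8% against 5.69% of all tested genes. The one that fell was Foxa2, a factor of uterine glands. The one that rose was Fkbp5, a receptor co-chaperone that steroid hormones induce, at 23.02, 22.3 and 18.7 CPM in BN-Oil, against 16.1, 13.5 and 12.7 CPM in HSD-Oil (log2 difference 0.60 ± 0.13, adjusted p = 0.016). Zbtb16, a zinc finger factor that progestins and glucocorticoids induce, is not in that list and was chosen after its values were seen. It had 12.7, 33.8 and 15.4 CPM in BN-Oil, against 3.66, 5.15 and 4.81 CPM in HSD-Oil (log2 difference 2.19 ± 0.31, adjusted p = 0.00115), with BN-Oil replicate 2 above the others. In the progesterone animals it had 30.01, 40.3 and 36.7 CPM in BN-P4, against 27.3, 28.5 and 28.6 CPM in HSD-P4. With an oil library omitted, the call was lost for Foxa2 without 4 of the 6 (adjusted p up to 0.0876) and Fkbp5 without 4 of the 6 (adjusted p up to 0.0792).

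Of 20 measured estrogen-responsive uterine genes 1 rose and 0 fell in BN-Oil, with a median log2 difference of -0.16 against -0.001 over all tested genes. This called share is below the 5.69% of all tested genes. Padi2, which converts arginine to citrulline in proteins and is induced by estrogen in the rodent uterus, had 97.96, 69.7 and 72.9 CPM in BN-Oil, against 26.6, 12.8 and 19.4 CPM in HSD-Oil (chromosome 5, 163141202 to 163182415). Every BN-Oil library lay above every HSD-Oil library, with a log2 difference of 2.03 ± 0.27 (adjusted p = 0.000718). It was also higher in the progesterone animals, with 107, 82.7 and 115 CPM in BN-P4, against 41.3, 39.3 and 23.3 CPM in HSD-P4 (log2 difference 1.56 ± 0.26, adjusted p = 0.00435). Areg, an EGF-family ligand named after its values were seen, had 1.41, 0.844 and 0.819 CPM in BN-Oil, against 0.103, 0.322 and 0.2795 CPM in HSD-Oil and did not pass (adjusted p = 0.0742).

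Among 14 measured genes for gland and secretory products 1 rose and 2 fell, a called share of 21.4% against 5.69% of all tested genes. Clu, the secreted chaperone clusterin and the most abundant gene called lower, had 621, 574 and 599.5 CPM in BN-Oil, against 1337, 1369 and 1343 CPM in HSD-Oil. The spread within each strain is small beside the gap between them, with a log2 difference of -1.17 ± 0.13 (adjusted p = 0.000225). Foxa2, the transcription factor that glands need to form, had 22.2, 19.3 and 18.9 CPM in BN-Oil, against 37.8, 25.6 and 35.8 CPM in HSD-Oil (log2 difference -0.71 ± 0.16, adjusted p = 0.0181). Spp1, the secreted adhesion protein osteopontin, went the other way at 25.0, 28.1 and 27.2 CPM in BN-Oil, against 2.99, 10.7 and 4.47 CPM in HSD-Oil (log2 difference 2.14 ± 0.33, adjusted p = 0.002). Of 39 measured Wnt pathway genes 0 rose and 3 fell, a called share of 7.69% against 5.69% of all tested genes. With exon reads, without BN-Oil replicate 1 or without HSD-Oil replicate 3 the list held 1 call, against 5 without HSD-Oil replicate 2 and 7 with DESeq2. Those that fell were the secreted Wnt inactivator Notum (-1.08 ± 0.28, log2 difference), the R-spondin receptor Lgr5 (-0.49 ± 0.10) and the ubiquitin ligase Rnf43 (-0.72 ± 0.13), and the last of them had 29.5, 27.4 and 30.8 CPM in BN-Oil, against 48.6, 45.1 and 50.4 CPM in HSD-Oil. Ihh, the hedgehog ligand of uterine epithelium, was named after its values were seen. It had 31.01, 16.1 and 23.3 CPM in BN-Oil, against 42.1, 34.5 and 47.2 CPM in HSD-Oil (adjusted p = 0.0288). Leaving out an oil library ended the calls of Foxa2 without 4 of the 6 (adjusted p up to 0.0876), Notum without 5 of the 6 (adjusted p up to 0.175), Lgr5 without 2 of the 6 (adjusted p up to 0.06) and Ihh without 4 of the 6 (adjusted p up to 0.112).

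Of 15 measured markers of uterine epithelium 0 rose and 4 fell in BN-Oil, and 14 had a negative log2 difference, with a list median of -0.43. Of all 15697 tested genes 7902 were negative. The called share was 26.7%, against 5.69% of all tested genes. Summed over the list, levels were 1026, 1049 and 991 CPM in BN-Oil, against 1549, 1154 and 1460.3 CPM in HSD-Oil, so that the sums do not overlap. Krt18, a keratin of simple epithelium, had 67.7, 77.8 and 75.03 CPM in BN-Oil, against 129.8, 95.1 and 113 CPM in HSD-Oil (log2 difference -0.62 ± 0.13, adjusted p = 0.0154). The adhesion molecule Epcam was at 176, 196 and 180.3 CPM in BN-Oil, against 303, 247 and 307 CPM in HSD-Oil (log2 difference -0.63 ± 0.16, adjusted p = 0.0368). Krt7 (-0.86 ± 0.17 on the log2 scale) and the homeobox gene Msx1 (-0.77 ± 0.12) also fell. Not called were Krt8 (-0.38), Krt19 (-0.38) and Cdh1 (-0.27), the main cadherin of epithelia, whose 149.8, 170.2 and 165 CPM in BN-Oil, against 218, 127 and 239 CPM in HSD-Oil overlap. HSD-Oil replicate 2 had the lowest epithelial sum of its group, and without it 6 members were called rather than 4. Without any of the other 5 oil libraries 1 or 2 were called. Calls were lost for Krt18 without 4 of the 6 (adjusted p up to 0.0709), Epcam without 5 of the 6 (adjusted p up to 0.138) and Krt7 without 2 of the 6 (adjusted p up to 0.0626).

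Single genes with known roles in epithelium are given next. Apart from Pax8 and Col17a1, which other lists named, they were chosen after their values were seen and are no test of a group. Esrp2, a splicing factor of epithelial cells, had 28.1, 24.1 and 28.1 CPM in BN-Oil, against 43.2, 37.6 and 43.04 CPM in HSD-Oil (log2 difference -0.63 ± 0.10, adjusted p = 0.00309). Grhl2, a transcription factor of epithelial junctions, fell by 0.60 on the log2 scale and the trafficking GTPase Rab25 by 0.64. Pax8, a transcription factor of Müllerian epithelium, had 32.3, 37.3 and 32.9 CPM in BN-Oil, against 54.3, 53.9 and 57.4 CPM in HSD-Oil (log2 difference -0.69 ± 0.10, adjusted p = 0.00135). The homeobox neighbours Dlx5 (-0.82) and Dlx6 (-0.73) fell, as did the hydrogen peroxide producing oxidase Duox1, at 2.37, 2.53 and 2.05 CPM in BN-Oil, against 5.73, 3.54 and 4.695 CPM in HSD-Oil, and its maturation factor Duoxa1 (-0.82). Col17a1, a collagen of hemidesmosomes, had 35.4, 30.7 and 30.5 CPM in BN-Oil, against 156, 45.02 and 137 CPM in HSD-Oil, where HSD-Oil replicate 2 lies far below the other HSD animals (log2 difference -1.80 ± 0.41, adjusted p = 0.0225). The epithelial immunoglobulin carrier Pigr (-0.89) overlapped and did not pass (adjusted p = 0.0571). The summed epithelial markers given above were lower in the same libraries, and their part in these differences was not tested. One-library omission ended the calls of Col17a1 without 5 of the 6 (adjusted p up to 0.095), Grhl2 without 4 of the 6 (adjusted p up to 0.0709), Rab25 without 3 of the 6 (adjusted p up to 0.0627), Dlx5 without 2 of the 6 (adjusted p up to 0.0531), Dlx6 without 6 of the 6 (adjusted p up to 0.187), Duox1 without 5 of the 6 (adjusted p up to 0.181) and Duoxa1 without 5 of the 6 (adjusted p up to 0.0972).

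Transport genes of the epithelium changed in both directions. Of 18 measured genes for ion and water transport 2 rose and 4 fell in BN-Oil. That is a called share of 33.3%, against 5.69% of all tested genes. Negative log2 differences were found for 14 of the 18, against 7902 of 15697 tested genes, and the list median was -0.23. Aqp5, a water channel of secretory epithelium, had 95.9, 77.9 and 87.2 CPM in BN-Oil, against 179, 132 and 168 CPM in HSD-Oil (log2 difference -0.88 ± 0.14, adjusted p = 0.00256). Slc26a4, the anion exchanger pendrin, had 140.0, 196 and 172 CPM in BN-Oil, against 341, 265 and 256 CPM in HSD-Oil (log2 difference -0.76 ± 0.14, adjusted p = 0.00815). Both were lower in all BN-Oil libraries. Scnn1g, a subunit of the epithelial sodium channel, fell by 1.74 and Fxyd3, a regulator of the sodium pump, by 0.81 on the log2 scale. Another such regulator, Fxyd4, rose to 105, 118 and 130.2 CPM in BN-Oil, against 63.8, 81.5 and 74.3 CPM in HSD-Oil, and the chloride-importing cotransporter Slc12a2 was higher by 0.44. Car2, a cytosolic carbonic anhydrase outside the list, was named after its values were seen. It had 32.5, 34.2 and 37.1 CPM in BN-Oil, against 57.8, 85.2 and 85.8 CPM in HSD-Oil (log2 difference -1.14 ± 0.20, adjusted p = 0.0053). The count of transport genes called was 3 without BN-Oil replicate 1, without BN-Oil replicate 3 or without HSD-Oil replicate 3, and single calls were lost for Scnn1g without 3 of the 6 (adjusted p up to 0.0604), Fxyd3 without 2 of the 6 (adjusted p up to 0.0593), Fxyd4 without BN-Oil replicate 3 (adjusted p = 0.057) and Slc12a2 without 6 of the 6 (adjusted p up to 0.143).

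Markers of smooth muscle were all above 0 in log2 difference (13 of 13 measured, median 0.32), against 7795 of 15697 tested genes. Of the 13, 1 passed the test, a called share of 7.69% against 5.69% of all tested genes. That gene was Myocd, the master coactivator of smooth muscle genes, with 70.8, 55.7 and 55.1 CPM in BN-Oil, against 38.03, 28.3 and 40.9 CPM in HSD-Oil (log2 difference 0.76 ± 0.19, adjusted p = 0.0363). Summed levels of the list were 23531, 19669 and 19302 CPM in BN-Oil, against 18529, 13290.0 and 17652 CPM in HSD-Oil. Gucy1a3, Gucy1b3 and the genes up to the connexin described after them were chosen after their values were seen and are no test of a group. Gucy1a3, the alpha subunit of the nitric oxide receptor guanylate cyclase, had 226, 255 and 268 CPM in BN-Oil, against 151, 146 and 132 CPM in HSD-Oil (chromosome 2, 200453505 to 200514967). No BN-Oil library fell below any HSD-Oil library (log2 difference 0.80 ± 0.09, adjusted p = 0.000295). Its partner, the beta subunit gene Gucy1b3, was at 33.2, 35.6 and 32.7 CPM in BN-Oil, against 20.9, 20.8 and 17.8 CPM in HSD-Oil (log2 difference 0.77 ± 0.18, adjusted p = 0.0243). Omission of an oil library ended the calls of Myocd without 6 of the 6 (adjusted p up to 0.135) and Gucy1b3 without 6 of the 6 (adjusted p up to 0.0959).

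Rgs5, a brake on G protein signalling in pericytes and smooth muscle, had 47.96, 56.7 and 51.3 CPM in BN-Oil, against 28.8, 22.96 and 24.7 CPM in HSD-Oil (log2 difference 1.03 ± 0.12, adjusted p = 0.000262). Actn2, the sarcomeric actinin, had 62.2, 53.4 and 57.8 CPM in BN-Oil, against 20.7, 14.3 and 18.9 CPM in HSD-Oil (log2 difference 1.68 ± 0.25, adjusted p = 0.00148). In both genes the groups are apart, and the ratio is larger for Actn2. Casq2, a calcium store protein (1.14 on the log2 scale), Pln, the inhibitor of the calcium pump (0.97, with 58.8% of reads placed uniquely), and the connexin Gja4 (1.13) rose too. Fast skeletal muscle troponins Tnni2 (1.43) and Tnnc2 (1.14) rose and Actn3 (-0.83) fell among 10 measured skeletal muscle markers, whose sums were 866, 793 and 716 CPM in BN-Oil, against 586, 556 and 568 CPM in HSD-Oil. Called genes made up 30% of these 10 markers, against 5.69% of all tested genes. The part of either muscle's share of the tissue in these differences was not tested. Calls that ended with 1 oil library left out were those of Casq2 without 6 of the 6 (adjusted p up to 0.121), Gja4 without 5 of the 6 (adjusted p up to 0.145), Tnni2 without 5 of the 6 (adjusted p up to 0.141), Tnnc2 without 6 of the 6 (adjusted p up to 0.128) and Actn3 without 4 of the 6 (adjusted p up to 0.0823).

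**Figure D2:**
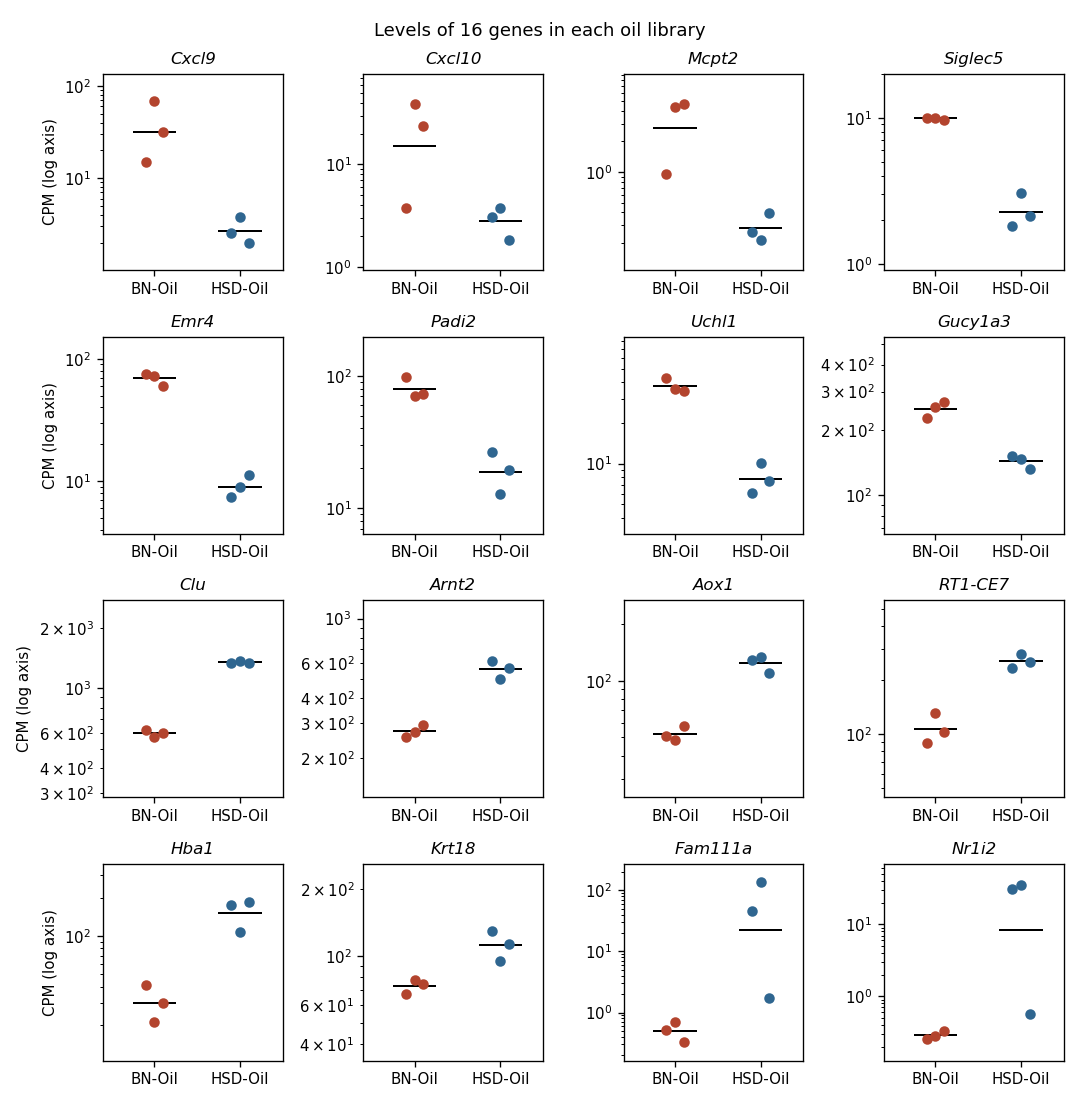
Levels in CPM on log axes of 16 genes in the 3 BN-Oil libraries (red, left in each panel) and the 3 HSD-Oil libraries (blue, right); black lines are geometric means. In most panels the strains are apart with little spread, whereas Cxcl9 and Cxcl10 spread widely within BN-Oil, and Fam111a and Nr1i2 within HSD-Oil.

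Of 44 measured interferon response genes 9 rose in BN-Oil and 0 fell, and 38 had a positive log2 difference, with a median of 0.29. Of all 15697 tested genes 7795 were positive. The called share of the list was 20.5%, against 5.69% of all tested genes. Cxcl9, a chemokine that interferon gamma induces and that attracts T cells, had 14.96, 67.7 and 31.5 CPM in BN-Oil, against 2.58, 3.76 and 2.01 CPM in HSD-Oil (chromosome 14, 17145006 to 17150876). All BN-Oil values lie above all HSD-Oil values, with BN-Oil replicate 2 the highest (log2 difference 3.77 ± 0.45, adjusted p = 0.000334). Cxcl10, its neighbour and relative, had 3.77, 38.7 and 23.7 CPM in BN-Oil, against 3.096, 3.76 and 1.84 CPM in HSD-Oil, so that BN-Oil replicate 1 was at the level of HSD-Oil (log2 difference 2.92 ± 0.61, adjusted p = 0.0136). Gbp5, an interferon-induced GTPase, had 34.8, 90.2 and 59.1 CPM in BN-Oil, against 27.5, 24.9 and 21.7 CPM in HSD-Oil (log2 difference 1.31 ± 0.26, adjusted p = 0.0102). Irf1, a transcription factor of the response, was at 55.9, 101 and 71.3 CPM in BN-Oil, against 48.5, 43.9 and 46.4 CPM in HSD-Oil (log2 difference 0.72 ± 0.19, adjusted p = 0.0401). Ifi47 (0.96), Gbp2 (0.93), Ifi44l (0.91), Rtp4 (0.90) and Irgm (0.60) completed the list of those that rose. For Gbp2 the groups overlap, with 71.7 CPM in BN-Oil replicate 1 against 73.9 CPM in HSD-Oil replicate 2 (adjusted p = 0.0496). The antiviral genes Oas2 (0.0007 on the log2 scale, adjusted p = 0.999) and Mx1 (0.10, adjusted p = 0.942) did not pass. Among those that rose, calls were lost for Cxcl10 without 2 of the 6 (adjusted p up to 0.0667), Irf1 without 5 of the 6 (adjusted p up to 0.168), Ifi47 without 5 of the 6 (adjusted p up to 0.151), Gbp2 without 5 of the 6 (adjusted p up to 0.202), Ifi44l without 5 of the 6 (adjusted p up to 0.136), Rtp4 without 4 of the 6 (adjusted p up to 0.155) and Irgm without 5 of the 6 (adjusted p up to 0.151).

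The summed interferon list stood at 1755, 2847 and 2070.2 CPM in BN-Oil, against 1838, 1926 and 1508 CPM in HSD-Oil, and these overlap. Over the same libraries summed T and NK cell markers were 62.5, 86.7 and 72.2 CPM in BN-Oil, against 99.5, 98.3 and 93.8 CPM in HSD-Oil, lower in BN-Oil but with BN-Oil replicate 2 again the highest of its group. Their part in the interferon result was not tested. Without BN-Oil replicate 2 or without HSD-Oil replicate 3 the list held 2 calls, without BN-Oil replicate 3 it held 3, without HSD-Oil replicate 1 or 2 it held 4, and a fit of the 6 oil libraries alone called 3. Cxcl9 and Gbp5 were called without each oil library in turn. In the progesterone animals 1 member was higher and 5 were lower in BN, and Cxcl10 was at 1.91, 1.25 and 2.42 CPM in BN-P4, against 1.74, 2.69 and 1.47 CPM in HSD-P4, under 3 CPM in all 6.

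Upstream sequence of 4 of the called interferon genes is printed to show where letters of known response elements lie in genes that rose together. The windows hold the 250 bases before the start of the gene in RefSeq on the GRCr8 assembly, 5′ to 3′ on the strand of the gene. Capitals mark GAAANNGAAA, the core of the interferon-stimulated response element, or TTCNNNGAA, the palindrome of the gamma-activated site, searched on both strands.
Cxcl9, chr14:16006916-16007165 (+ strand): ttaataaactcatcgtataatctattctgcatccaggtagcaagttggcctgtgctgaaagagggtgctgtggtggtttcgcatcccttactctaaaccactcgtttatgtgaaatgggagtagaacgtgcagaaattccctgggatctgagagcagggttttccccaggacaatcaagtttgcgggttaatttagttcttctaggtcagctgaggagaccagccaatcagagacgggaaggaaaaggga
Cxcl10, chr14:15988816-15989065 (+ strand): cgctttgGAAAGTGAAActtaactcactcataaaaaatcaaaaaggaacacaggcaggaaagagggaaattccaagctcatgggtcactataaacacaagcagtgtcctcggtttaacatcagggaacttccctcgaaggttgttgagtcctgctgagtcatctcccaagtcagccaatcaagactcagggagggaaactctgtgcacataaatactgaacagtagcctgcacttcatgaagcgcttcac
Gbp5, chr2:233910749-233910998 (+ strand): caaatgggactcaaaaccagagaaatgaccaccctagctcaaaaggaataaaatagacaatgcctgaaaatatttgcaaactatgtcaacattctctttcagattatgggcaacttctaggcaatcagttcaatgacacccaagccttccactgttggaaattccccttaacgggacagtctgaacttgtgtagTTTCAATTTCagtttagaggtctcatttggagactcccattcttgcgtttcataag
Irgm, chr10:33742579-33742828 (- strand): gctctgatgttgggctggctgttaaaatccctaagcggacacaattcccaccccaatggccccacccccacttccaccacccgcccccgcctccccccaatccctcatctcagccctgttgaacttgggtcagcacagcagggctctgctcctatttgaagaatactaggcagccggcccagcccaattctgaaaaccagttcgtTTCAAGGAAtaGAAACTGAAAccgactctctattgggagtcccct
GAAANNGAAA lies in the window of 5 of the 8 called genes for which RefSeq gave a promoter (Ifi44l, Irgm, Gbp2, Gbp5 and Cxcl10), of 17 of 23 members that were not called and of 3.41% of 33469 rat promoters. TTCNNNGAA is in 4 of the 8 (Ifi44l, Ifi47, Irgm and Irf1), in 5 of the 23 and in 7.67% of all. In Irgm the matches to both elements do not overlap. Neither set of letters is in the Cxcl9 window. These matches are descriptions of the reference sequence of BN and were not tested for a difference between the strains.

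Markers of mast cells and granulocytes summed to more in every BN-Oil library than in any HSD-Oil library. Of 14 measured markers of mast cells, eosinophils and neutrophils 5 rose and 0 fell, with a median log2 difference of 0.71. This is a called share of 35.7%, against 5.69% of all tested genes. The list summed to 48.1, 64.1 and 58.0 CPM in BN-Oil, against 33.9, 30.8 and 29.7 CPM in HSD-Oil. Mcpt2, the chymase of mucosal mast cells in the rat, had 0.959, 4.36 and 4.67 CPM in BN-Oil, against 0.258, 0.215 and 0.391 CPM in HSD-Oil (log2 difference 3.49 ± 0.60, adjusted p = 0.00448). BN-Oil replicate 1 held less of it than the other BN animals but more than any HSD animal. Cpa3, the carboxypeptidase of mast cell granules, had 5.05, 9.35 and 7.37 CPM in BN-Oil, against 3.77, 3.43 and 2.74 CPM in HSD-Oil (log2 difference 1.12 ± 0.22, adjusted p = 0.0103). Chains of the IgE receptor rose, Fcer1a at 1.41, 2.67 and 2.05 CPM in BN-Oil, against 0.722, 0.698 and 0.2795 CPM in HSD-Oil and Ms4a2 at 2.43, 4.15 and 3.44 CPM in BN-Oil, against 1.03, 0.859 and 0.9502 CPM in HSD-Oil (log2 differences 1.82 ± 0.39 and 1.81 ± 0.26). Siglec5, a sialic acid-binding receptor of immune cells, had 10.04, 9.99 and 9.67 CPM in BN-Oil, against 1.81, 3.06 and 2.12 CPM in HSD-Oil (log2 difference 2.08 ± 0.34, adjusted p = 0.00301). Kit, the receptor mast cells depend on, which pacemaker cells of smooth muscle also carry, did not pass at 0.46 (adjusted p = 0.0614). Without BN-Oil replicate 2 the list held 3 calls. It held 6 higher and 0 lower calls in the progesterone animals. Calls that depended on single oil libraries were those of Cpa3 without BN-Oil replicate 2 (adjusted p = 0.0522) and Fcer1a without 3 of the 6 (adjusted p up to 0.0791). The leukotriene enzyme Alox5 and its partner Alox5ap, named after their values were seen, were higher by 1.30 ± 0.22 and 0.70 ± 0.13.

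Macrophage markers rose in 2 of 20 measured genes, a called share of 10% against 5.69% of all tested genes. Cd163, the hemoglobin scavenger receptor of resident macrophages, had 22.4, 17.9 and 14.3 CPM in BN-Oil, against 5.67, 6.97 and 8.89 CPM in HSD-Oil (log2 difference 1.35 ± 0.21, adjusted p = 0.00265). Itgam, an integrin of myeloid cells, had 274, 307 and 315 CPM in BN-Oil, against 146, 173 and 169 CPM in HSD-Oil (log2 difference 0.88 ± 0.11), but 97.04% of its reads lay in introns and exon reads gave -0.13 (adjusted p = 0.905). Emr4, an adhesion receptor of macrophages outside the list, was named after its values were seen. It had 75.2, 72.3 and 60.2 CPM in BN-Oil, against 7.43, 8.91 and 11.1 CPM in HSD-Oil with 98.9% of reads in introns. Itgam and Emr4 are therefore described by their intron signal. The summed macrophage list did not separate the strains, with 1077, 1451 and 1249 CPM in BN-Oil, against 1334, 1313 and 1355 CPM in HSD-Oil. Among 21 measured T and NK cell markers 0 rose and 1 fell, a called share of 4.76%, below the 5.69% of all tested genes. Of the 21, 18 were negative, against 7902 of 15697 tested genes. The one that fell was Cd8a, the coreceptor of cytotoxic T cells, with 4.22, 7.03 and 3.85 CPM in BN-Oil, against 9.7, 9.28 and 14.2 CPM in HSD-Oil (log2 difference -1.13 ± 0.24, adjusted p = 0.0162), and the call was lost by Cd8a without 3 of the 6 (adjusted p up to 0.0829).

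The RT1 complex on chromosome 20 is the major histocompatibility complex of the rat, whose products present peptides to T cells. Of 44 measured genes of the complex and of antigen presentation 0 rose and 7 fell, with a median log2 difference of -0.23. Called members made up 15.9% of the list, against 5.69% of all tested genes. Class I genes of the RT1-CE cluster made up 4 of the 7. RT1-CE7 had 88.6, 132 and 102 CPM in BN-Oil, against 235, 279 and 251 CPM in HSD-Oil (log2 difference -1.25 ± 0.15, adjusted p = 0.000412). RT1-CE3 had 4.67, 5.49 and 6.39 CPM in BN-Oil, against 29.2, 30.5 and 31.2 CPM in HSD-Oil and RT1-CE5 had 19.5, 28.6 and 14.7 CPM in BN-Oil, against 56.6, 51.5 and 66.3 CPM in HSD-Oil, both without overlap (log2 differences -2.46 ± 0.16 and -1.47 ± 0.19). RT1-CE1, with 78.5% of reads placed uniquely, was lower by 0.70. The nonclassical class I gene RT1-T24-4 (-0.48) and RT1-O1 (-1.66) and the class II chain RT1-Bb followed, the last at 46.9, 86.0 and 60.6 CPM in BN-Oil, against 201, 216 and 143 CPM in HSD-Oil (log2 difference -1.53 ± 0.31, adjusted p = 0.0121). Its partner chain RT1-Ba had 81.9, 144 and 106 CPM in BN-Oil, against 155, 143 and 132 CPM in HSD-Oil and was not called (adjusted p = 0.437), nor was RT1-Da (-0.31). The class I gene RT1-A3 was higher at 181, 168 and 156 CPM in BN-Oil, against 115, 75.7 and 53.04 CPM in HSD-Oil but missed the threshold (adjusted p = 0.0719). Haplotypes of this complex differ in sequence and in the number of class I genes, the copies are near identical, and 84.9% of RT1-CE7 reads and 79.9% of RT1-CE3 reads lay in introns, so levels of single copies are uncertain. With exon reads RT1-CE3 gave -1.39 and RT1-O1 -3.39, and RT1-CE1 (adjusted p = 0.0913) and RT1-T24-4 (adjusted p = 0.14) were not called. Without BN-Oil replicate 3 the list held 4 calls. Calls lost with 1 oil library left out were those of RT1-T24-4 without 5 of the 6 (adjusted p up to 0.169), RT1-O1 without 5 of the 6 (adjusted p up to 0.14) and RT1-Bb without 2 of the 6 (adjusted p up to 0.0584).

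Of 10 measured red blood cell genes 0 rose and 4 fell in BN-Oil, 3 of them globins (Hba1, Hba2 and Hbb-b1), the list median was -1.19, and sums were 143, 97.9 and 137 CPM in BN-Oil, against 404, 298 and 425 CPM in HSD-Oil. The called share of this list was 40%, against 5.69% of all tested genes. Hba1, an alpha globin gene, had 41.2, 21.2 and 30.1 CPM in BN-Oil, against 176, 108 and 184 CPM in HSD-Oil (log2 difference -2.34 ± 0.41, adjusted p = 0.00498). Hba2 had 14.3, 6.68 and 10.98 CPM in BN-Oil, against 72.1, 48.2 and 77.5 CPM in HSD-Oil (log2 difference -2.62 ± 0.42, adjusted p = 0.00292), again without overlap. Of the beta globins Hbb had 58.2, 43.3 and 67.2 CPM in BN-Oil, against 106, 96.5 and 106 CPM in HSD-Oil and was not called (-0.87, adjusted p = 0.287), whereas Hbb-b1, with 73.3% of reads placed uniquely, had 1.34, 1.34 and 2.21 CPM in BN-Oil, against 23.2, 25.1 and 33.8 CPM in HSD-Oil (log2 difference -4.08 ± 0.31, adjusted p = 8.23e-06). Epb42, a membrane protein of red cells, fell by 2.28 on the log2 scale, and with 1 oil library omitted the call was lost for Epb42 without 5 of the 6 (adjusted p up to 0.131). Alas2, the erythroid enzyme of heme synthesis, had 0.511, 0.563 and 0.737 CPM in BN-Oil, against 1.34, 1.56 and 2.24 CPM in HSD-Oil and did not pass (adjusted p = 0.0682). Genes picked by globin names took 0.0107 ± 0.00230% of reads in BN-Oil and 0.0366 ± 0.00655% in HSD-Oil (exact two-sided permutation p = 0.1, the smallest 3 against 3 allow). The amount of blood in the samples was not measured, and its part in these values was not tested.

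Of 39 measured enzymes that handle foreign compounds 0 rose and 6 fell in BN-Oil, a called share of 15.4% against 5.69% of all tested genes. The list median was -0.18, and 14 members had a positive log2 difference. Aox1, an aldehyde oxidase, had 50.7, 48.2 and 57.5 CPM in BN-Oil, against 128, 134 and 111 CPM in HSD-Oil (chromosome 9, 64726637 to 64804786). The groups are far apart relative to their spread, with a log2 difference of -1.25 ± 0.11 (adjusted p = 3.09e-05). The glutathione transferase Gstm2 had 142, 124 and 134 CPM in BN-Oil, against 194, 213 and 224 CPM in HSD-Oil (log2 difference -0.66 ± 0.10, adjusted p = 0.00196). Its relatives Gstm1 (-1.03) and Gstm7 (-0.89) fell too, and in both HSD-Oil replicate 1 lay nearest to BN-Oil. The carboxylesterase Ces1d had 0.639, 0.633 and 0.655 CPM in BN-Oil, against 2.73, 3.86 and 3.63 CPM in HSD-Oil (log2 difference -2.39 ± 0.43, adjusted p = 0.00551). Its neighbour in name Ces1e, outside the list and named after its values were seen, had 1.79, 2.25 and 1.23 CPM in BN-Oil, against 4.18, 10.5 and 9.78 CPM in HSD-Oil. SRXN1, which restores oxidised peroxiredoxins, fell by 1.26 with 97.5% of reads in introns. In the progesterone animals 0 members of the list were higher and 6 lower in BN, and of these Aox1 (-1.41) and Ces1d (-3.76) were also called under oil. Gstm1 (-0.22, adjusted p = 0.569), Gstm2 (-0.26, adjusted p = 0.151), Gstm7 (-0.03, adjusted p = 0.95) and SRXN1 (-0.86, adjusted p = 0.0627) did not pass there. Of 12 measured adipocyte markers 1 rose and 2 fell, with a median log2 difference of -0.12. Their called share was 25%, against 5.69% of all tested genes. Those that fell were the triglyceride lipase Pnpla2 (-0.74, adjusted p = 0.0137) and Dgat2, which makes triglycerides (-0.44, adjusted p = 0.0211). Lpl, the lipoprotein lipase that adipocytes and muscle make, rose to 212, 201 and 225 CPM in BN-Oil, against 122, 133 and 122 CPM in HSD-Oil (log2 difference 0.76 ± 0.09, adjusted p = 0.000356). Without BN-Oil replicate 2 or replicate 3 the adipocyte list held 1 call. Calls lost without an oil library were those of Gstm7 without 5 of the 6 (adjusted p up to 0.128), SRXN1 without 3 of the 6 (adjusted p up to 0.082), Pnpla2 without 3 of the 6 (adjusted p up to 0.0769) and Dgat2 without 5 of the 6 (adjusted p up to 0.0903).

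**Figure D3:**
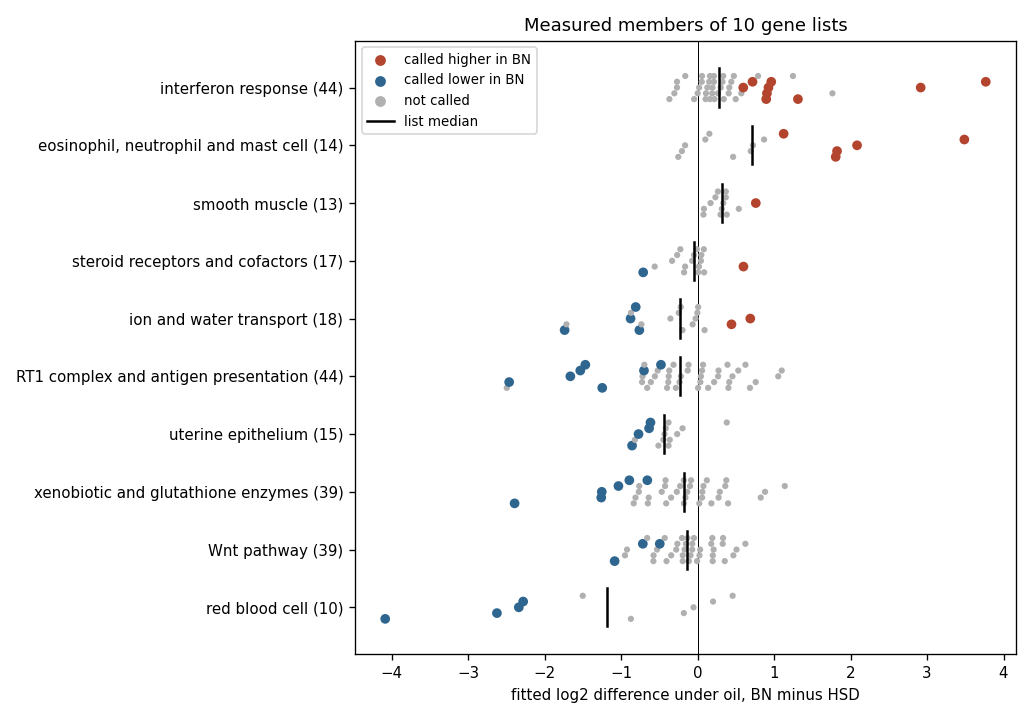
Fitted log2 difference under oil, BN minus HSD, of every measured member of 10 gene lists (number measured in brackets); red members were called higher in BN, blue called lower and grey not called, and the black bar is the list median. Calls in the interferon and mast cell lists lie to the right of 0 and those in the epithelium, xenobiotic, RT1, Wnt and red cell lists to the left, while ion transport and steroid receptors hold both.

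Uchl1, a ubiquitin hydrolase abundant in neurons, had 42.7, 35.2 and 34.3 CPM in BN-Oil, against 6.09, 10.1 and 7.49 CPM in HSD-Oil (log2 difference 2.25 ± 0.20, adjusted p = 2.96e-05), and 25.5, 24.6 and 29.8 CPM in BN-P4, against 5.65, 6.82 and 4.42 CPM in HSD-P4. No overlap was seen in either pair of groups. Cdh19, a cadherin of Schwann cells, rose by 0.94 and Mpzl2 fell by 0.55. With Uchl1 they are the called members of the list for nerve and Schwann cells, of which 12 were measured. The list median was 0.01, and the called share was 25%, against 5.69% of all tested genes. Crhr1 and Crhr2, receptors of corticotropin-releasing hormone and urocortins, were named after their values were seen. Both were higher at low levels (5.56, 4.08 and 3.604 CPM in BN-Oil, against 2.22, 1.02 and 0.727 CPM in HSD-Oil for Crhr2). Omitting single oil libraries ended the calls of Cdh19 without 3 of the 6 (adjusted p up to 0.0722), Mpzl2 without 5 of the 6 (adjusted p up to 0.178), Crhr1 without 6 of the 6 (adjusted p up to 0.126) and Crhr2 without 5 of the 6 (adjusted p up to 0.154). Upk1b, a uroplakin from the mesothelium list, was at 122, 109 and 114 CPM in BN-Oil, against 50.8, 36.2 and 57.9 CPM in HSD-Oil (log2 difference 1.25 ± 0.17, adjusted p = 0.000732) while the other 7 measured mesothelial markers were not called.

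Of 51 measured genes for extracellular matrix and remodelling 2 rose and 4 fell, a called share of 11.8% against 5.69% of all tested genes. Mmp12, the macrophage elastase, had 1.02, 0.633 and 1.06 CPM in BN-Oil, against 2.94, 5.04 and 5.03 CPM in HSD-Oil (log2 difference -2.25 ± 0.43, adjusted p = 0.00874). Cxcl14, a chemokine of epithelium and stroma, was the single called member of a list of 34 chemokines and cytokines (2.94%, below the 5.69%). That list leaves out the interferon-induced chemokines counted with the interferon list. Cxcl14 was at 7.99, 10.3 and 9.502 CPM in BN-Oil, against 29.4, 23.8 and 30.9 CPM in HSD-Oil (log2 difference -1.60 ± 0.15, adjusted p = 5.27e-05, 70.2% of reads placed uniquely). Mgp, the matrix Gla protein that limits calcification, was among the most abundant genes called higher, at 447, 504 and 454 CPM in BN-Oil, against 293, 326 and 288 CPM in HSD-Oil. Idua, a lysosomal iduronidase, had 391, 337 and 385 CPM in BN-Oil, against 258, 291 and 251 CPM in HSD-Oil, a smaller step of 0.48 ± 0.11. Dhrs3, which reduces retinal, was lower at 68.2, 65.2 and 63.7 CPM in BN-Oil, against 148, 85.3 and 112 CPM in HSD-Oil. In several lists no gene was called: 0 of 22 clock genes, 0 of 25 immediate early genes, 0 of 32 cell cycle genes, 0 of 30 oxidative phosphorylation subunits, 0 of 31 ribosomal proteins, 0 of 14 stromal markers, 0 of 16 endothelial markers, 0 of 14 steroid metabolism genes, 0 of 9 ovary markers and 0 of 4 squamous markers. At the 5.69% called over all tested genes, lists this short would hold few or no calls. The absence of a call therefore does not show that a list is unchanged. None of 9 B and plasma cell markers was called either, but all 9 had a negative log2 difference (median -0.45). Their sums were 180.1, 178 and 159.9 CPM in BN-Oil, against 187, 205 and 191 CPM in HSD-Oil, without overlap. Of the 14 stromal markers 12 were positive (median 0.23), with sums of 8178, 7691 and 7331 CPM in BN-Oil, against 6549, 6376 and 7083 CPM in HSD-Oil. Of the 16 endothelial markers 12 were positive (median 0.18), with sums of 1241, 1104 and 1071 CPM in BN-Oil, against 1056, 854 and 1003 CPM in HSD-Oil. These sums do not overlap either. Of the 31 ribosomal proteins 26 were negative (median -0.14), and their sums overlap. Without 1 oil library calls were lost by Mgp without 4 of the 6 (adjusted p up to 0.0889) and Idua without 4 of the 6 (adjusted p up to 0.0981).

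Spread within the groups differed. The common biological coefficient of variation, estimated in each group alone, was 0.112 in BN-Oil (0.0673 to 0.143 over pairs of libraries) and 0.159 in HSD-Oil (0.144 to 0.173). It was 0.112 in BN-P4 and 0.221 in HSD-P4. After adding 1 CPM, 11 genes ranged at least 8-fold among the HSD-Oil animals and at most 2-fold among the BN-Oil animals, and 1 gene, Cxcl10, the other way round. In the progesterone groups the counts were 14 and 0, and 2 genes were among those of both treatments. The 11 genes include loci where reads map ambiguously. Reads placed uniquely made up 0% for ENSRNOG00000050777 and ENSRNOG00000050536, 12.1% for TAP2 and 53.6% for ENSRNOG00000032825. ENSRNOG00000050777 and ENSRNOG00000050536 stood at 268 and 261 CPM in HSD-Oil replicate 3, and whether the same reads were counted for both was not tested.

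Fam111a, a nuclear protease that restricts virus replication, had 0.511, 0.703 and 0.328 CPM in BN-Oil, against 45.9, 135 and 1.73 CPM in HSD-Oil (chromosome 1, 236163691 to 236179257). HSD-Oil replicate 3 was near BN-Oil, and the 2 other HSD-Oil animals were far above (log2 difference -6.85 ± 1.47, adjusted p = 0.0221). The call was lost by Fam111a without 3 of the 6 (adjusted p up to 0.112). In the progesterone animals it had 0.637, 0.722 and 0.632 CPM in BN-P4, against 202, 119 and 459.6 CPM in HSD-P4, with all HSD animals high. Nr1i2, the pregnane X receptor that senses steroids and drugs, had 0.256, 0.281 and 0.328 CPM in BN-Oil, against 30.96, 34.8 and 0.559 CPM in HSD-Oil, high in 2 of 3 HSD-Oil animals, and 0.463, 0.5904 and 0.0527 CPM in BN-P4, against 0.435, 48.3 and 24.6 CPM in HSD-P4, again in 2 of 3. Neither contrast of it passed (adjusted p = 0.0731 under oil). ENSRNOG00000033517, an unnamed gene, was at 1.15, 0.914 and 1.72 CPM in BN-Oil, against 1.599, 2.04 and 83.6 CPM in HSD-Oil, high in 1 of 3 HSD-Oil animals, and at 0.695, 1.51 and 0.843 CPM in BN-P4, against 84.3, 104 and 2.36 CPM in HSD-P4, high in 2. In the opposite sense Fndc7 had 109, 108 and 128 CPM in BN-Oil, against 3.87, 68.2 and 74.8 CPM in HSD-Oil and RGD1309362_2 had 84.1, 124 and 109.6 CPM in BN-Oil, against 1.29, 52.4 and 35.2 CPM in HSD-Oil, where HSD-Oil replicate 1 alone was low. Bpifb5, of the family of lipid-binding secreted proteins, had 12.6, 14.6 and 11.3 CPM in BN-Oil, against 9.65, 131 and 18.2 CPM in HSD-Oil, with HSD-Oil replicate 2 alone high. Serpini1, the serine protease inhibitor neuroserpin, was at 15.9, 29.0 and 24.4 CPM in BN-Oil, against 2.68, 51.4 and 5.48 CPM in HSD-Oil. The genotype of single HSD animals at these genes was not analysed here. Reads placed uniquely made up 65.2% for RGD1309362_2 and 77.9% for Bpifb5.

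Loci to which reads map ambiguously held part of the largest differences. Of the called genes 107 had under 80% of reads placed uniquely, 49 higher and 58 lower in BN-Oil, and 7.07% of 1514 such tested genes were called against 5.54% of the other 14183. Aldh1a7, a retinaldehyde dehydrogenase relative with 55.0% unique reads, had 0, 0.0703 and 0.0819 CPM in BN-Oil, against 63.1, 61.4 and 45.3 CPM in HSD-Oil. These are 2 reads in BN-Oil and 3180 in HSD-Oil, a ratio of HSD-Oil to BN-Oil of 1196 (95% exact interval 331 to 9883, counting error only), and the call was lost by Aldh1a7 without 3 of the 6 (adjusted p up to 0.0639). In the progesterone animals it was at 0, 0 and 0 CPM in BN-P4, against 0.08696, 9.34 and 0.0589 CPM in HSD-P4, so that HSD-P4 was high in 1 animal only and there below HSD-Oil. The other 4 of the 5 largest such differences were in the unnamed ENSRNOG00000049099 (-6.19 on the log2 scale), ENSRNOG00000018121 (-5.55), ENSRNOG00000046823 (-4.80) and ENSRNOG00000047079 (4.55). ENSRNOG00000050918, with 39.8% unique reads, had 0 reads in BN-Oil and 206 in HSD-Oil and was at least 51.7-fold lower in BN-Oil, with 3 reads over the group as the floor. The ribosomal protein copies Rps10l1 and Rpl6_1, chosen after their values were seen, had 10.6, 9.63 and 9.83 CPM in BN-Oil, against 125, 148 and 109 CPM in HSD-Oil and 14.1, 13.7 and 13.2 CPM in BN-Oil, against 126, 137 and 136 CPM in HSD-Oil, with 35.1% and 47.03% of reads placed uniquely. Unlike them, the 31 measured genes in the ribosomal protein list were not called. Numbered copies of Ogn, a small proteoglycan, went opposite ways at 10.04% and 10.3% unique reads: Ogn_1 had 108, 140.4 and 141 CPM in BN-Oil, against 34.5, 49.5 and 36.2 CPM in HSD-Oil, and Ogn_2 had 1.66, 2.25 and 3.69 CPM in BN-Oil, against 9.597, 15.7 and 12.02 CPM in HSD-Oil. With unique reads Ogn_1 gave a log2 difference of 3.19 (adjusted p = 0.000101). Ogn_2 gave -0.93 with unique reads and was not called (adjusted p = 0.279). Arsj, an arylsulfatase and the most abundant gene called higher, had 536, 619 and 608 CPM in BN-Oil, against 360.5, 366 and 330.1 CPM in HSD-Oil, with 99.1% of reads in introns and 53.5% placed uniquely. With exon reads it gave 0.07 (adjusted p = 0.937), and its sign turned to -0.84 with exon-exon reads. Counting unique reads alone gave 915 calls of 15304 tested genes (5.98%), and 856 of the 893 calls were kept, 30 were lost, 1 changed sign and 6 were not measured.

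Called genes were spread over all autosomes and the X chromosome. Their share of tested genes was largest on chromosome 2 (82 of 1031, 7.95%) and smallest on the X chromosome (15 of 515, 2.91%), apart from the mitochondrial genes (0 of 15). With unique reads these shares were 8.10 and 2.62%. On chromosome 4 more genes were higher (38) than lower (21) in BN-Oil, on chromosome 10 fewer (19 and 43) and on chromosome 7 fewer (12 and 33). No test was made of these shares.

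**Figure D4:**
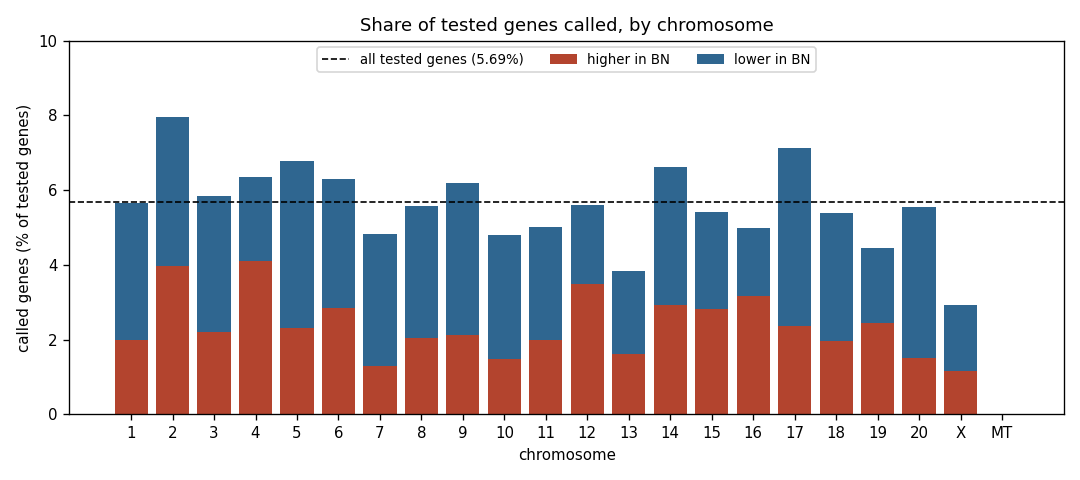
Called genes as a percentage of tested genes on each chromosome, higher in BN-Oil in red and lower stacked on top in blue; the dashed line marks 5.69%, the share over all tested genes. Most chromosomes lie between 4 and 7%, chromosome 2 is highest at 7.95% and X lowest of the nuclear chromosomes at 2.91%.

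Of 15675 pairs of neighbouring tested genes 100 were called together (0.638%), 68 in the same direction and 32 in opposite directions, and 5 pairs of the same direction overlap in position. How many such pairs shuffled gene positions would give was not counted. The longest run of called neighbours held 4 genes on chromosome 1, from 174082186 to 175129363. It joins the olfactory receptor gene Olr59, which rose to 27.8, 28.9 and 30.1 CPM in BN-Oil, against 16.8, 13.9 and 10.7 CPM in HSD-Oil, to Hbb-b1 and the unnamed ENSRNOG00000031230 and ENSRNOG00000048955, which fell. ENSRNOG00000048955 had 6.78, 4.64 and 8.27 CPM in BN-Oil, against 85.4, 76.6 and 90.5 CPM in HSD-Oil (log2 difference -3.69 ± 0.42), with 74.1% of reads placed uniquely. A further 9 runs held 3 genes. On chromosome 12, from 23680047 to 23732886, ENSRNOG00000046696 rose (3.15) and ENSRNOG00000033017 (-2.30) and ENSRNOG00000024425 (-1.88) fell. On the same chromosome RGD1559588_1, ENSRNOG00000047079 and ENSRNOG00000048420 were called higher with total gene reads, with 9.05% to 87.5% of reads placed uniquely. With exon reads RGD1559588_1 turned to -3.60 (adjusted p = 0.00594) and ENSRNOG00000048420 lost its call (adjusted p = 0.0769). With 1 oil library left out a call was lost by RGD1559588_1 without 4 of the 6 (adjusted p up to 0.1).

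The baseline differences were set beside those of the progesterone animals, in which 900 genes were called (5.73%), 381 higher and 519 lower in BN-P4. The contrasts share no library. Both treatments called 391 genes in the same direction, 189 higher and 202 lower, which is 43.8% of the calls under oil and 43.4% of those under progesterone. Of the 893 baseline calls 820 kept their sign under progesterone (91.8%). The same share over all tested genes was not counted. Opposite calls were made for 3 genes, Arnt2, Csrp2 and Igsf23, and with 1 oil library omitted the oil call was lost by Csrp2 without HSD-Oil replicate 3 (adjusted p = 0.0539) and Igsf23 without 6 of the 6 (adjusted p up to 0.211).

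**Figure D5:**
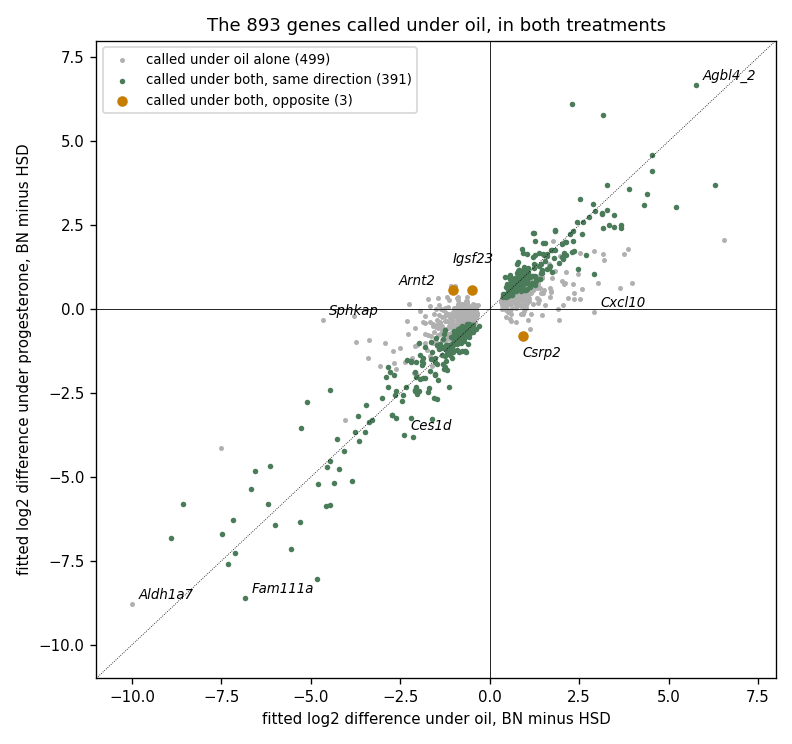
Fitted log2 difference, BN minus HSD, under progesterone (vertical axis) and under oil (horizontal axis) for the 893 genes called under oil; the dotted line marks equal differences. Of the 893 points 820 have the same sign in both; 391 were called in the same direction under both treatments (green) and 3 in opposite directions (orange, Arnt2, Igsf23 and Csrp2).

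A test of the difference between the contrasts, progesterone minus oil, called 8 genes (0.051%), 5 of them among the baseline calls. Arnt2, a bHLH-PAS partner of the aryl hydrocarbon receptor group (chromosome 1, 147327952 to 147484879), had 125, 111 and 129.9 CPM in BN-P4, against 77.3, 87.01 and 82.5 CPM in HSD-P4, and 256, 271 and 292 CPM in BN-Oil, against 616, 500.2 and 566 CPM in HSD-Oil. Under progesterone BN was higher and under oil lower, without overlap in either, and the difference of the contrasts was 1.61 ± 0.15 (adjusted p = 0.00198). Slc25a15, the mitochondrial ornithine carrier, had 135, 225 and 147 CPM in BN-P4, against 256, 221 and 290.2 CPM in HSD-P4, and 45.9, 39.6 and 45.05 CPM in BN-Oil, against 17.8, 19.3 and 22.7 CPM in HSD-Oil. Its difference of contrasts was -1.73 ± 0.26 (adjusted p = 0.0367), and the strain difference passed under oil alone. Csrp2, a LIM protein of smooth muscle, had 30.4, 33.4 and 33.3 CPM in BN-P4, against 53.9, 45.2 and 69.1 CPM in HSD-P4, and 42.2, 39.7 and 43.7 CPM in BN-Oil, against 17.2, 28.97 and 20.2 CPM in HSD-Oil (difference -1.71 ± 0.26, adjusted p = 0.0367). For Clu the progesterone libraries held 379.6, 359.5 and 367 CPM in BN-P4, against 421, 366 and 281 CPM in HSD-P4, overlapping, against the separated oil values given above (difference 1.22 ± 0.19, adjusted p = 0.0367). Emid1, an EMI domain matrix gene with 82.3% of reads in introns, had 35.3, 42.05 and 42.3 CPM in BN-P4, against 38.4, 37.5 and 39.5 CPM in HSD-P4, and 54.2, 54.7 and 56.3 CPM in BN-Oil, against 102, 100.3 and 108 CPM in HSD-Oil (difference 0.96 ± 0.13, adjusted p = 0.0231). Under progesterone the strain difference of Clu, Emid1 and Slc25a15 did not pass, and those of Arnt2 and Csrp2 passed with the opposite sign.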

How the data were processed

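The authors deposited a table per library with counts of total gene reads, unique gene reads, exon, exon-exon and intron reads per gene, per the file headers, and RPKM. RPKM as deposited equals exon reads scaled by length and depth for 97.8% of values above 0 and uses gene reads for 2.20%. The genome build named is Rnor_5.0, per the submitters' processing notes; the aligner, the counter and strandedness are not stated in the sources at hand. Reads of overlapping or antisense genes are therefore not separable, and sequence variants of either strain were not used. Of 26312 genes, 5742 carry Ensembl identifiers, kept as names.

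The test on total gene reads used edgeR 4.0.16 under R 4.3.3 (TMM, filterByExpr defaults, robust quasi-likelihood, 4 groups, 12 libraries, 8 residual degrees of freedom, common coefficient of variation 0.157). The filter kept 15697 genes with 99.95% of reads. Standard errors are the log2 difference divided by the root of the F statistic. Steps were tested on simulated data. Replicates are libraries with different animal numbers; libraries of 1 group differed by a chi-square per degree of freedom of 4.71 to 32.3, so none is a duplicate. Alternatives used limma 3.58.1 and DESeq2 1.42.0 and log2(RPKM + 0.5).

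Named genes are, among calls, the 12 largest in each direction with a symbol, 1 CPM or more in the higher group, 80% unique reads and no overlap; the 3 lowest adjusted p per direction in each of 35 lists; the 5 largest with under 80% unique reads and 5 CPM or more; the 3 longest runs of neighbours; the 3 most abundant per direction; and those with 0 reads in a group and 1 CPM or more in the other. Others were chosen after their values were seen, and some named by the rule are not reported here. Members and lists were chosen with earlier results of these data known. Promoter sequences are from RefSeq, GRCr8. Of the value columns 0 were left unassigned.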

Additional observations from a re-analysis of the deposited data

Results flagged for a closer look

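For 5 of the genes described, the strain difference itself differed between progesterone and oil animals in the interaction test across all genes, at an adjusted p below 0.05. The difference of the log2 contrasts, progesterone minus oil, was 1.61 for Arnt2, 1.22 for Clu, -1.71 for Csrp2, 0.96 for Emid1 and -1.73 for Slc25a15. Over 25 alternative settings the call was kept in 25 for Arnt2, 15 for Clu, 11 for Csrp2, 13 for Emid1 and 15 for Slc25a15, and the fitted difference ranged from 1.51 to 1.69 for Arnt2, from 1.09 to 1.35 for Clu, from -1.96 to -1.53 for Csrp2, from 0.89 to 1.23 for Emid1 and from -2.01 to -1.62 for Slc25a15. Progesterone and any batch that follows treatment cannot be told apart.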

How the results depend on the processing

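No paired analysis was possible because replicate numbers were given in accession order and the animal numbers join no libraries across groups. The count of 893 calls under oil was within 1.5 times of itself with RLE, upper-quartile or no scaling, with no filter or a stricter one, with unique reads, without robust estimation, with the 6 oil libraries alone, with voom and with DESeq2 (838 to 1294). It was 538 with exon reads, 296 with exon-exon reads, 532 with log2 RPKM and 198 in a test against 1.5-fold, and 436 to 1327 with 1 library left out. For the 900 calls under progesterone these 4 settings gave 566, 344, 492 and 182, the 6 progesterone libraries alone 409, DESeq2 1519 and leaving out 1 library 341 to 1515; without scaling 60.9% of its calls were higher in BN, against 42.3%. The 8 interaction calls were 119 with DESeq2, 13 with log2 RPKM and 2 against 1.5-fold, and 2 to 17 with 1 library left out. Where the construction does not show it, the cause was not tested.

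Among all 893 calls the sign changed for 12 with exon reads, 21 with exon-exon reads, 35 with log2 RPKM and 1 with unique reads. Among the 146 named called genes it changed for 3: Arsj at -0.84 with exon-exon reads, Itgam at -0.13 with exon reads, -0.13 with exon-exon reads and -0.11 with log2 RPKM, and RGD1559588_1 at -3.60 with exon reads and -3.21 with exon-exon reads. With exon reads the calls of Actn3, Crhr2, Dgat2, Dlx6, Duox1, Epcam, Fcer1a, Gbp2, Igsf23, Irgm, Lgr5, Mpzl2, Myocd, Notum, Rtp4 and Slc12a2 were also lost (adjusted p from 0.0573 to 0.435). Of the 146, 83 were called without each of the 6 oil libraries in turn. Depth limits genes near 3 reads, where fitted folds depend on the prior count.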
